A study of Mus musculus with 6 samples.

Results

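The genes described here are 10 mouse genes that act beside the Frizzled receptors at the surface of a cell that receives a Wnt signal. They are the co-receptors Lrp5 and Lrp6, the tyrosine kinase-like co-receptors Ror1, Ror2 and Ryk, the ubiquitin ligases Znrf3 and Rnf43, and the R-spondin receptors Lgr4, Lgr5 and Lgr6. They were chosen by name for these roles, and all 10 were found among the 53421 genes of the deposited count table. Of these, 9 passed the filter on low counts, and Lgr6 did not.

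The RNA-seq data came from cultured cerebellar granule cells (GCs) after knockdown (KD) of YTHDF2, a reader protein that binds N6-methyladenosine (m6A) in mRNA and is known for promoting the decay of the mRNAs it binds. The study asked which transcripts change when YTHDF2 is lowered in neurons that are growing axons. GCs of C57BL/6 mice at postnatal day 8 received a lentiviral hairpin, which targeted Ythdf2 in the 3 libraries of shYthdf2 and was a control in the 3 of shCtrl. Both groups thus carried lentivirus and went through puromycin selection, and the knockdown rests on 1 hairpin. The study's methods call the 3 libraries of each group biological replicates, and the libraries are numbered 1, 2 and 4 in their names. Values below are given in the order of replicates 1, 2 and 4.

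Sample titles and genotype labels assign the knockdown to the opposite 3 libraries from those whose names carry it. The assignment here follows the names and the hairpin number in the study's methods. Should the titles be the correct ones, all directions below are the other way round. Ythdf2 had 500, 401 and 500 normalized counts after KD and 617, 839 and 627 in the controls (TMM normalization, scaled to one library size). The groups did not overlap, and 67.3% of the shCtrl mean remained (log2 fold change -0.57, standard error (abbreviated SE) 0.16, adjusted p = 0.125 by edgeR). The libraries held 17246821 to 21546595 counts. Replicate 2 stood apart in both groups. The mean chi-square per gene between replicates 1 and 4 was 3.34 in shYthdf2 and 4.68 in shCtrl, against 33.1 to 55.3 between replicate 2 and either of them, where 1 is the value for counting error alone. The 14 granule cell markers, of which Zic1 and Reln were the most abundant, summed to between 214840 and 234228 normalized counts in all 6 libraries. By edgeR 0 of them passed the adjusted threshold, and 0 higher and 4 lower ones (Barhl1, Neurod1, Cbln1 and Cntn2) had an unadjusted p under 0.05. Barhl1 had 6619, 6594 and 6760 normalized counts after KD and 11245, 8614 and 10608 in the controls, and Cbln3 was highest in replicate 2 of both groups. Markers of oligodendrocytes, astrocytes, Purkinje cells, microglia and vascular cells were also present and differed between libraries, and their values are given beside the results they move with. Granule cell progenitor, unipolar brush cell and ependymal markers were also read. Of those tested, 6 of 6, 1 of 5 and 2 of 4 were higher, and by edgeR 0 passed the adjusted threshold. The only 1 with an unadjusted p under 0.05 was Eomes of unipolar brush cells. It had 359, 640 and 325 normalized counts after KD and 1747, 1172 and 1696 in the controls (log2 fold change -1.80, SE 0.29, adjusted p = 0.0502 by edgeR). In bulk RNA, fewer cells of a type and less RNA per cell cannot be told apart.

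A Wnt protein bound to a Frizzled receptor recruits LRP5 or LRP6, which bind Axin inside the cell and so spare β-catenin from destruction. ROR1, ROR2 and RYK bind Wnt proteins such as WNT5A and serve branches of the pathway that do not need β-catenin, among them axon growth and guidance. ZNRF3 and RNF43 mark Frizzled and LRP6 with ubiquitin, which removes them from the cell surface, and R-spondins bound to LGR4, LGR5 or LGR6 clear the ligases away and so leave more receptor on the surface. Znrf3, Rnf43 and Lgr5 are themselves known target genes of β-catenin in many tissues, which makes the ligases part of a negative feedback loop.

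Because YTHDF2 reads m6A, the transcripts were searched for GGACT, the DNA spelling of the core of the m6A consensus. The search covered the sense strand of the transcript with the longest coding sequence of each gene in GRCm38. A match is a stretch of letters and not a measured m6A site. Among 13719 coding genes tested, 92.1% held at least 1 match and the median density was 1.06 per kilobase. Znrf3, the member with the largest change of the 9 tested, had 1.43 per kilobase, above 70.1% of the genes. It held 9 matches, of which 5 were in the coding sequence. These 5 are shown with 10 bases on either side, from the minus strand of chromosome 11 in GRCm38, with GGACT in capitals. The first lies in exon 2 of 9 and the others in exon 8.
Znrf3 chr11:5338721-5338725: atgacgaagaGGACTtgtatgaata
Znrf3 chr11:5282356-5282360: ggacaagtatGGACTcccatggcaa
Znrf3 chr11:5281813-5281817: actccgtggtGGACTgcacagaagt
Znrf3 chr11:5281342-5281346: ggctcctcgaGGACTgcaaccctcc
Znrf3 chr11:5281165-5281169: gctacactgaGGACTattcagtgag

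Ror1, the member with the lowest log2 fold change, held 7 matches (1.21 per kilobase, above 59.6% of the genes), of which 2 were in the coding sequence, both in exon 9 of 9 and shown from the plus strand of chromosome 4.
Ror1 chr4:100441496-100441500: tttcagctttGGACTccagccatat
Ror1 chr4:100442194-100442198: ctttgcttggGGACTcccatatcca

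The densest of the 10 was Lrp5, with 17 matches, all in the coding sequence, or 3.29 per kilobase, which was above 98.7% of the genes. Lrp6 held 19 matches, 16 of them in the coding sequence, or 2.03 per kilobase. In these 2 genes many matches recurred in one setting, after TACT and before GA, which was noticed when the windows were read and then counted. Lrp5 held 5 such matches and Lrp6 held 3. In 13719 genes, 11 (0.0802%) had this longer match in the coding sequence, and 4 had more than 1 of them, namely Lrp1, Lrp1b, Lrp5 and Lrp6. All 4 encode large receptors of the LDL receptor family, whose extracellular parts are built from repeated β-propeller modules. A window of each of Lrp5 and Lrp6 shows the shared letters.
Lrp5 chr19:3652315-3652319: tacatgtactGGACTgactgggggg
Lrp6 chr6:134513347-134513351: acattgtactGGACTgactggaata
The remaining members had 1.86 (Rnf43), 1.78 (Lgr4), 1.06 (Lgr5), 1.00 (Ror2), 0.899 (Lgr6) and 0.798 (Ryk) matches per kilobase. Whether the number of matches goes with a change after KD was not tested.

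Of the 9 members tested, 1 passed an adjusted p-value under 0.05 after YTHDF2 KD, and this was Znrf3, which was higher. Among all 17214 genes tested, 0.244% were called higher, 0.36% lower and 0.604% in either direction. At an unadjusted p under 0.05 there were 4 members, Znrf3 and Lgr4 higher and Ror1 and Ryk lower, beside 9.5% of all genes higher and 10.6% lower (20.1% in all). The groups did not overlap for 3 members, Znrf3 and Lgr4 above and Ryk below, beside 12.6% of all genes above and 13.4% below (26% in all). In the difference between libraries of the same replicate number, 6 members were higher in 3 of 3 pairs (27% of all genes) and 2 were lower in 3 of 3 (26.9%), which makes 8 of 9 with a single direction beside 53.9% of all genes. The median log2 fold change of the 9 was 0.29, and that of all genes tested was 0.0082.

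**Figure D1:**
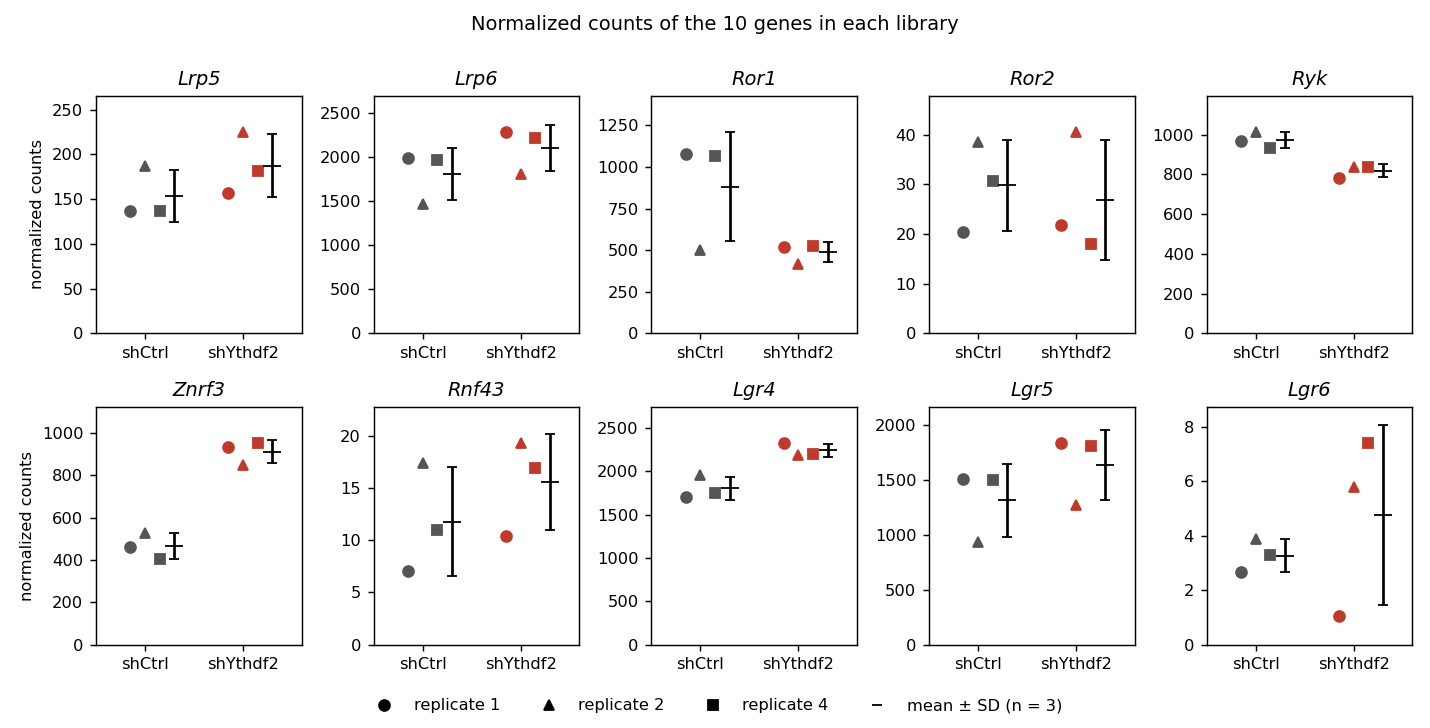
Normalized counts (vertical axes, each from 0) of the 10 genes in the 6 libraries, with a symbol for each replicate number and a bar for the mean ± SD (n = 3). Every shYthdf2 library lies above every shCtrl library for Znrf3 and Lgr4 and below for Ryk, while replicate 2 (triangles) carries the lowest Lrp6, Ror1 and Lgr5 values in both groups.

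The largest change was found among the ligases. Znrf3 (ENSMUSG00000041961, chr11:5276324-5444847, minus strand) encodes a membrane-spanning RING ligase that removes Frizzled and LRP6 from the surface. It had 932, 849 and 952 normalized counts after KD and 461, 528 and 405 in the controls. The lowest shYthdf2 library was well above the highest shCtrl library, and replicate 2, which was the lowest of its group after KD and the highest among the controls, gave the smallest of the 3 differences. From a control mean of 465 ± 61.1 to 911 ± 54.5 (SD, n = 3 each), Znrf3 rose to 196% of the shCtrl mean. The log2 fold change was 0.97 (SE 0.13, adjusted p = 0.0447 by edgeR's quasi-likelihood method, with Benjamini-Hochberg adjustment). The differences within replicates 1, 2 and 4 were 1.02, 0.69 and 1.23 on the log2 scale. The call sat close to the threshold. It was kept in 10 of 15 alternatives, and over all 15 the adjusted p ranged from 7.52e-09 to 0.286. The share of all genes called was 0.61% with RLE size factors, 0.627% with no normalization factor, 1.98% with no filter, 0.862% with at least 10 counts in every library, 1.35% with the replicate block and 4.7% without shYthdf2 replicate 2, and Znrf3 was the single member called in each of these. It was lost with limma-voom (0.0528, 0.139% of all genes called) and without shYthdf2 replicate 1 (0.286), shYthdf2 replicate 4 (0.269), shCtrl replicate 1 (0.258) or shCtrl replicate 4 (0.241). Those 4 fits without a library called 0 of all genes by edgeR, and the log2 fold change of Znrf3 with any 1 library left out stayed between 0.88 and 1.07.

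Rnf43 (ENSMUSG00000034177, chr11:87662722-87735539, plus strand) is the paralogue of Znrf3, with the same action on Frizzled. It was close to the limit of detection, with 10, 20 and 16 counts after KD and 8, 18 and 10 in the controls. The groups overlapped, and replicate 2 was the highest in both. Its log2 fold change was 0.40 (SE 0.45, adjusted p = 0.657), and a difference of that size was not detectable at this depth. Per length of exon, Znrf3 made up 97.3% to 98.7% of the summed level of the ligases in shYthdf2 and 96.2% to 98.2% in shCtrl, so nearly all of the ligase mRNA in these cultures was Znrf3.

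None of the other relatives of the ligases was called. Of 11 further ligases of the PA-TM-RING and Znrf type, 10 were tested, 3 were higher and 7 lower, and by edgeR 0 passed the adjusted threshold and 0 reached an unadjusted p under 0.05. Their median log2 fold change was -0.05. The 2 most abundant were Znrf1, an intracellular ligase of neurons (log2 fold change -0.23, SE 0.15, adjusted p = 0.442), and Rnf130 (-0.05, SE 0.09, adjusted p = 0.814).

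**Figure D2:**
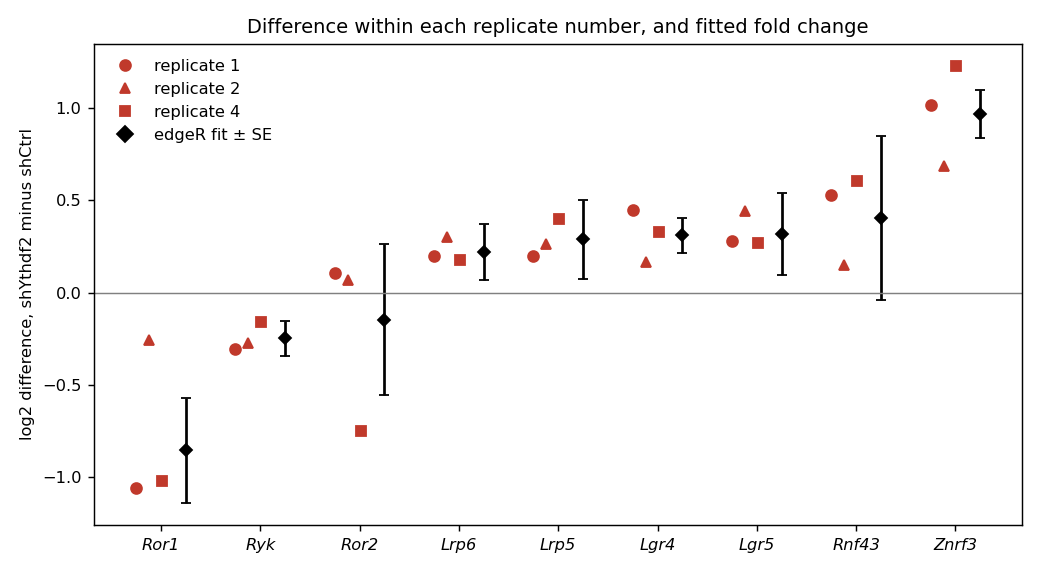
Differences between shYthdf2 and shCtrl libraries of the same replicate number (red symbols) and the edgeR log2 fold change ± SE (black diamonds) for the 9 genes tested, on the log2 scale. All 3 red symbols lie on one side of 0 for every gene except Ror2, and the differences of Znrf3 (0.69 to 1.23) lie above those of every other gene.

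Among the R-spondin receptors, which oppose the ligases, Lgr4 and Lgr5 were higher in each pair of libraries by a smaller amount. Lgr4 (ENSMUSG00000050199, chr2:109917647-110014257, plus strand), the member of the family with the widest expression in adult and developing tissues, had 2328, 2195 and 2204 normalized counts after KD and 1706, 1959 and 1755 in the controls. The groups did not overlap, but shCtrl replicate 2 came near to the shYthdf2 libraries. The means of 2242 ± 74.2 (SD, n = 3) and 1807 ± 134 (SD, n = 3) gave 124% of the control. The log2 fold change was 0.31 (SE 0.09, adjusted p = 0.140). Lgr4 passed the adjusted threshold in 3 of 15 alternatives, with adjusted p-values from 1.36e-06 to 0.470 over all 15. These 3 fits called a large share of all genes. It was 22.1% with a term for replicate 2, 18.3% without shCtrl replicate 2 (Lgr4 adjusted p = 0.0200) and 52.7% without both libraries of replicate 2.

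Lgr5 (ENSMUSG00000020140, chr10:115450311-115587780, minus strand), best known as a marker of stem cells in the gut, had 1834, 1268 and 1806 normalized counts after KD and 1508, 931 and 1501 in the controls. Here the groups overlapped, since the replicate 2 library was by far the lowest of each group, and shYthdf2 replicate 2 was below shCtrl replicates 1 and 4. Within pairs the differences were close to each other, at 0.28, 0.44 and 0.27 on the log2 scale. The log2 fold change was 0.32 (SE 0.22, adjusted p = 0.471). Lgr6 (ENSMUSG00000042793, chr1:134983301-135105276, minus strand) had 1, 6 and 7 counts after KD and 3, 4 and 3 in the controls, too few for a comparison, and no fold change is given. By level per length, Lgr4 made up 70.6% of the 3 receptors in both groups (SD 3.85 in shYthdf2 and 6.83 in shCtrl) and Lgr6 made up 0.131% ± 0.0914 and 0.110% ± 0.0222.

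The co-receptors of β-catenin signalling did not pass the test. Lrp6 (ENSMUSG00000030201, chr6:134446476-134566965, minus strand), the main Wnt co-receptor of early development, had 2289, 1806 and 2223 normalized counts after KD and 1992, 1468 and 1965 in the controls. The groups overlapped through the low replicate 2 libraries, with 2106 ± 262 after KD against 1808 ± 295 on average (SD, n = 3 each) and a log2 fold change of 0.22 (SE 0.15, adjusted p = 0.464). Lrp5 (ENSMUSG00000024913, chr19:3584828-3686564, minus strand), its paralogue with known roles in bone and in retinal vessels, was much lower, with 156, 225 and 181 against 136, 187 and 137. Its replicate 2 libraries were the highest of each group, opposite to Lrp6. The log2 fold change of Lrp5 was 0.29 (SE 0.22, adjusted p = 0.497). Lrp6 made up 88.7% ± 3.20 (SD, n = 3) of the pair by level per length in shYthdf2 and 89.0% ± 3.68 in shCtrl.

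Among the tyrosine kinase-like co-receptors, the values were lower after KD for Ror1 and Ryk. Ror1 (ENSMUSG00000035305, chr4:100095791-100444765, plus strand), a receptor of WNT5A expressed mostly in the embryo, had 517, 419 and 525 normalized counts after KD and 1079, 501 and 1065 in the controls. Controls 1 and 4 had about the same level and stood far above all other libraries, while shCtrl replicate 2 lay within the shYthdf2 range, so the groups overlapped. With means of 487 ± 59.3 after KD and 882 ± 329.6 in the controls (SD, n = 3 each), 55.2% of the control level was found. The log2 fold change was -0.86 (SE 0.29, adjusted p = 0.159), and the differences within pairs were -1.06, -0.26 and -1.02. Ror1 passed the adjusted threshold in 4 of 15 alternatives, among them DESeq2 (adjusted p = 0.0434, beside 7.67% of all genes called) and the fit without shCtrl replicate 2 (log2 fold change -1.14, adjusted p = 0.0031, beside 18.3% of all genes called).

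Ryk (ENSMUSG00000032547, chr9:102834917-102908305, plus strand), an atypical kinase that steers axons away from Wnt sources, varied little within either group. It had 783, 839 and 835 normalized counts after KD and 970, 1015 and 935 in the controls. The groups did not overlap (p = 0.1 in an exact permutation test, two-sided, which can give no smaller p with 3 against 3). The means of 819 ± 31.3 (SD, n = 3) and 973 ± 40.0 (SD, n = 3) gave 84.2% of the control, with a log2 fold change of -0.25 (SE 0.10, adjusted p = 0.207). Ror2 (ENSMUSG00000021464, chr13:53109312-53286124, minus strand), the paralogue of Ror1 that also binds WNT5A, had only 21, 42 and 17 counts after KD and 23, 40 and 28 in the controls. Its pairs went in different directions, with differences of 0.10, 0.07 and -0.75, and the log2 fold change was -0.15 (SE 0.41, adjusted p = 0.873). Its sign changed when shYthdf2 replicate 4 or shCtrl replicate 2 was left out, to 0.071 and 0.092.

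Whether paralogues responded differently was tested on the log2 ratio of their normalized counts in each library, by a two-sided exact permutation test over the 6 libraries. The ratio of Znrf3 to Rnf43 was higher after KD by 0.55 (SDs of 0.50 and 0.54 within shYthdf2 and shCtrl) and that of Ror2 to Ror1 by 0.59 (SDs of 0.78 and 1.03), with exact permutation p = 0.3 and 0.4. The ratio of Lrp6 to Lrp5 differed by -0.062 and that of Lgr4 to Lgr5 by -0.018, both with exact permutation p = 1. The ratios of Lgr4 and Lgr5 to Lgr6 differed by 0.13 and 0.14, with exact permutation p = 1 and 0.9. After adjustment over the 6 pairs every p was 1, and with 3 against 3 this test cannot go below 0.1. The change of Znrf3 was thus not shown to differ from that of Rnf43.

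Levels of different genes were compared per length, as RPKM, the counts per kilobase of exon scaled to the total counts of the library, which was computed here from the counts. In the shCtrl libraries Lgr4 had the highest level at 16.0 ± 0.913 (SD, n = 3) RPKM, followed by Ryk at 11.2 ± 0.258. Both were above the remaining members in every control library. Ror1 (8.02 ± 3.10), Lrp6 (6.91 ± 1.24) and Lgr5 (6.69 ± 1.79) followed, and their ranges overlapped. Znrf3 came next at 3.06 ± 0.347, below those 3 in every control library. Lrp5 (0.820 ± 0.141), Ror2 (0.366 ± 0.108), Rnf43 (0.0935 ± 0.0396) and Lgr6 (0.0248 ± 0.00426) were 1 RPKM or less. Each family thus had 1 member or, for the kinases and Lgr receptors, 2 members with a high level and another that was rare.

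**Figure D3:**
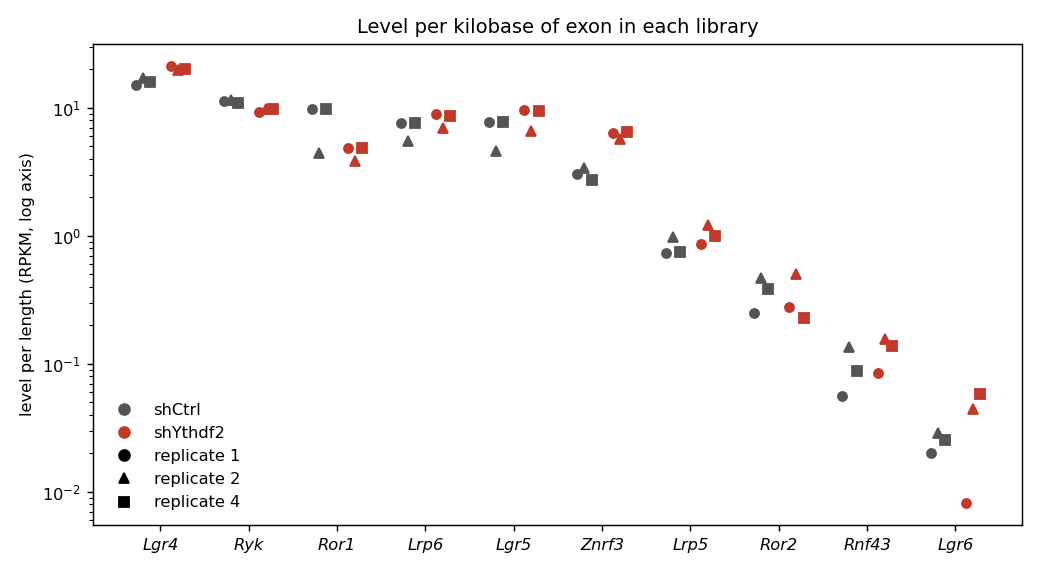
Level per kilobase of exon (RPKM, log axis) of the 10 genes in each library, ordered by the shCtrl mean, with shCtrl in grey and shYthdf2 in red and a symbol for each replicate number. Lgr4 and Ryk lie highest in the controls, and Ror1 and Znrf3 exchange their order between the groups.

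After YTHDF2 KD the order of the middle genes was different. Znrf3 reached 6.36, 5.69 and 6.45 RPKM and Ror1 was at 4.83, 3.85 and 4.88, so that Znrf3 was above Ror1 in 3 of 3 shYthdf2 libraries, while it was below Ror1 in 3 of 3 shCtrl libraries (3.06, 3.41 and 2.72 against 9.83, 4.44 and 9.78). Lgr4 (20.4 RPKM) and Ryk (9.65) remained the highest by mean. The choice of length matters for the middle of the order. The exons of Lgr5 span 10264 bases in union but its longest transcript has 4793, and with the longest transcript in place of the union the control levels were 18.6 for Lgr4, 16.5 for Ryk, 14.3 for Lgr5, 10.1 for Lrp6, 8.02 for Ror1 and 3.83 for Znrf3.

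The balance of ligases and receptors was described by ratios of summed RPKM, which are given with no test because they are scores over the members. The ligases Znrf3 and Rnf43 together stood at 0.0819, 0.0641 and 0.0850 per unit of summed Frizzled, Lrp5 and Lrp6 after KD and at 0.0451, 0.0439 and 0.0420 in the controls. The groups did not overlap, and the controls differed little among themselves. Frizzled receptors themselves summed to 73.2 ± 8.58 RPKM (SD, n = 3) and 64.6 ± 8.59 RPKM. The R-spondin receptors Lgr4 to Lgr6 stood at 4.80, 4.50 and 4.48 per unit of ligase after KD and at 7.35, 6.11 and 8.39 in the controls. Both Lgr4 and Znrf3 were higher after KD, but the ligase was higher by more, so the receptor to ligase ratio was lower in every shYthdf2 library than in every control.

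**Figure D4:**
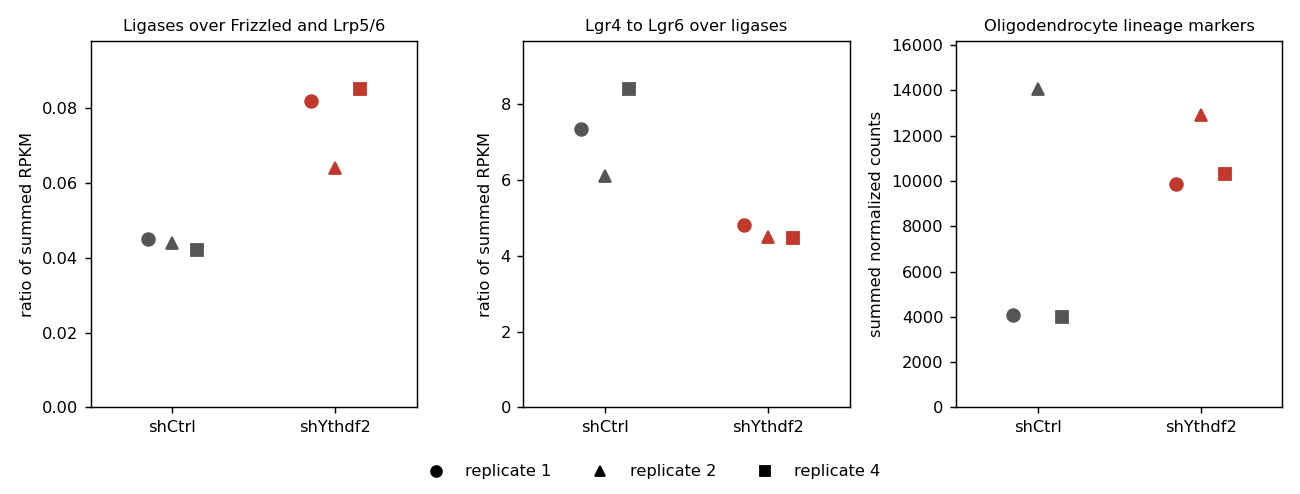
Left and middle, ratios of summed RPKM (ligases over Frizzled receptors with Lrp5 and Lrp6, and Lgr4 to Lgr6 over ligases) in each library. Right, summed normalized counts of 8 oligodendrocyte lineage markers. The ratios separate the groups, while in the marker sum shCtrl replicate 2 (14059) lies above the shYthdf2 libraries (9880 to 12923) and far above the other controls.

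Replicate 2 moved many of the members in the same way in both groups. Compared with the mean of replicates 1 and 4, replicate 2 was lower for Lgr5 (log2 difference -0.52 in shYthdf2 and -0.69 in shCtrl), Lrp6 (-0.32 and -0.43) and Ror1 (-0.32 and -1.10). It was higher for Lrp5 (0.42 and 0.45), Ror2 (1.01 and 0.62), Rnf43 (0.52 and 0.94) and, slightly, Ryk (0.05 and 0.09). In all, 7 of the 9 tested members moved in one direction in both groups, and so did 68.3% of all genes tested. Znrf3 (-0.15 and 0.29) and Lgr4 (-0.05 and 0.18) were the exceptions. A term for replicate 2 in the edgeR fit left 6 members past the adjusted threshold, namely Znrf3 (adjusted p = 0.00741), Lgr5 (0.0170), Ror1 (0.0231), Lgr4 (0.0249), Lrp6 (0.0299) and Ryk (0.0342), 4 of them higher and 2 lower, beside 22.1% of all genes called by that fit. Without both libraries of replicate 2 the same 6 genes passed, beside 52.7% of all genes. In that fit each group consists of replicates 1 and 4, which lie close together.

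**Figure D5:**
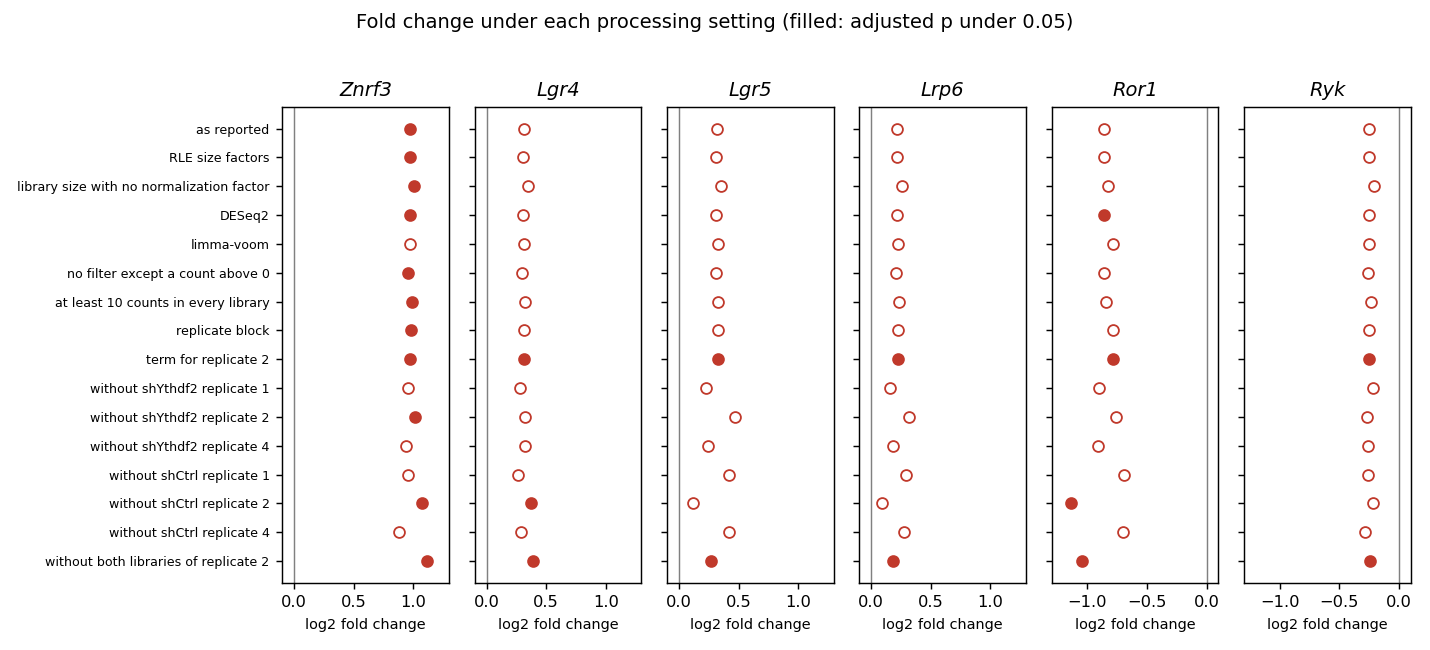
Log2 fold change (horizontal axes) of 6 genes in the fit reported here (top) and under 15 alternatives, with filled symbols for an adjusted p under 0.05. The direction of each of the 6 genes is the same in every setting, and filled symbols appear for all 6 only with a term for replicate 2 or without both libraries of replicate 2.

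The genes around the members in the Wnt pathway were read from lists with 106 genes in all, of which 80 were tested. In these, 41 were higher and 39 lower, the median log2 fold change was 0.020, and 0 passed the adjusted threshold in edgeR's test. An unadjusted p under 0.05 was reached by 25 of them, 11 higher and 14 lower, beside 20.1% of all genes. DESeq2 called 10 (beside 7.67% of all genes), limma-voom called 0 (0.139%) and the fit with the replicate number as a block called 2 (1.35%). The 2 called with the block were Lrp4, an LDL receptor relative that binds agrin and opposes LRP6 (175 ± 40.2 against 66.9 ± 28.3 normalized counts, SD, n = 3), and Bcl9l, a partner of β-catenin in the nucleus (3450 ± 267 against 4940 ± 219), both named after their values were seen. The adjusted p of both was 0.0450 with the block, against 0.0892 for Lrp4 and 0.0598 for Bcl9l without it.

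Among ligands, 10 of 19 Wnt genes were tested, 7 higher and 3 lower, with a median log2 fold change of 0.49 and 0 past the adjusted threshold in edgeR's test (2 higher and 1 lower at an unadjusted p under 0.05). Wnt5a, a ligand of the Ror receptors and Ryk, had 313, 324 and 307 normalized counts after KD and 149, 191 and 106 in the controls, without overlap (log2 fold change 1.08, SE 0.22, adjusted p = 0.0679). Wnt7a, a ligand secreted by GCs, had a log2 fold change of 0.91 (SE 0.68, adjusted p = 0.502). Of 4 R-spondins, the ligands of the Lgr receptors, 2 were tested. Rspo2 had 110 ± 13.2 against 69.5 ± 24.4 normalized counts (SD, n = 3), a log2 fold change of 0.66 (SE 0.28, adjusted p = 0.246), and Rspo1 had at most 37 counts in a library.

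Of 10 Frizzled receptors, 9 were tested (6 higher, 3 lower, median 0.14, 0 past the adjusted threshold and 1 lower at an unadjusted p under 0.05), and Fzd6 had 0 counts in all 6 libraries. The most abundant was Fzd3, a receptor for axon guidance, at 4559 ± 83.0 against 4295 ± 326.9 normalized counts (SD, n = 3, log2 fold change 0.09, SE 0.09, adjusted p = 0.656). Fzd7 had a log2 fold change of 0.41 (SE 0.30, adjusted p = 0.491). Of 17 secreted inhibitors and Dkk receptors only 6 passed the filter, 2 higher and 4 lower, and Dkk1, the classic inhibitor that blocks Lrp5 and Lrp6, had at most 3 counts in a library. Sfrp1, which binds Wnt proteins, had a log2 fold change of -0.40 (SE 0.11, adjusted p = 0.115), and Apcdd1 had 0.57 (SE 0.33, adjusted p = 0.381).

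Of 11 other receptor partners, 10 were tested, with 6 higher and 4 lower. By edgeR 0 were past the adjusted threshold, and 2 higher and 2 lower had an unadjusted p under 0.05. The most abundant, Atp6ap2, which links LRP6 to the proton pump, had a log2 fold change of -0.45 (SE 0.10, adjusted p = 0.0805), and Tmem59 had 0.16 (SE 0.18, adjusted p = 0.660). In the LDL receptor family outside Lrp5 and Lrp6, 7 of 11 were higher and 4 lower, 0 of them past the adjusted threshold by edgeR, with 4 higher and 3 lower at an unadjusted p under 0.05. Lrp1, an endocytic receptor, stood at -0.02 (SE 0.12, adjusted p = 0.948), and Lrp8, a receptor of reelin, at 0.60 (SE 0.18, adjusted p = 0.143). All 21 genes of the β-catenin core were tested, 6 higher and 15 lower, with a median of -0.06, and 6 of the lower ones had an unadjusted p under 0.05. In this list Apc, a scaffold of the destruction complex, had -0.03 (SE 0.12, adjusted p = 0.903) and its neuronal relative Apc2 had -0.27 (SE 0.11, adjusted p = 0.231).

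Since Znrf3 is a β-catenin target gene, the other targets are of interest beside it. Of 14 listed, 11 were tested, 5 higher and 6 lower, with a median log2 fold change of -0.13, and 0 passed the adjusted threshold, with 1 higher and 3 lower at an unadjusted p under 0.05. Axin2, the most widely used reporter of the pathway, had 1402, 1244 and 1521 normalized counts after KD and 1126, 1169 and 1146 in the controls. These groups did not overlap either, with a log2 fold change of 0.28 (SE 0.10, adjusted p = 0.203). Nkd1, another feedback inhibitor, had 0.15 (SE 0.21, adjusted p = 0.732). Of the targets tested, 1 lay above without overlap and 2 below, beside 12.6% and 13.4% of all genes. Below was Myc, named after its values were seen, with 166, 173 and 171 normalized counts after KD and 486, 269 and 513 in the controls. Its log2 fold change was -1.31 (SE 0.25, adjusted p = 0.0594 by edgeR). In planar polarity genes, the branch served by the Ror receptors, 9 of 13 tested were higher and 4 lower (median 0.15), 0 of them past the adjusted threshold by edgeR, with 5 higher and 1 lower at an unadjusted p under 0.05. Celsr2 had a log2 fold change of 0.12 (SE 0.12, adjusted p = 0.605) and Scrib of -0.26 (SE 0.21, adjusted p = 0.546).

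In edgeR's test without a block, the only listed gene past the adjusted threshold besides Znrf3 was Rxfp1, a relaxin receptor with the same leucine-rich repeat build as the Lgr receptors. It rose from 16.1 ± 4.98 to 122 ± 11.5 normalized counts (SD, n = 3; log2 fold change 2.91, SE 0.29, adjusted p = 0.0279). The other 4 of the 5 leucine-rich repeat receptors listed were not tested because of low counts.

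Markers of other cell types moved with some members. The 8 oligodendrocyte lineage markers, among them Mbp of myelin, summed to 9880, 12923 and 10329 normalized counts after KD and to 4082, 14059 and 3973 in the controls. All 8 had a positive log2 fold change (median 0.63), and by edgeR 0 passed the adjusted threshold and 0 reached an unadjusted p under 0.05. Ror1 was low in the 4 libraries where this sum was high, shCtrl replicate 2 included, and high in the other 2. This split was not particular to Ror1. In a principal component analysis of all genes tested, shCtrl replicates 1 and 4 stood at 52.4 and 56.7 on the first component (44.1% of the variance). The other libraries lay between -37.6 and -19.6. By their sum, the 11 astrocyte and Bergmann glia markers followed the same split. The sums were 13956, 12909 and 13779 after KD and 9310, 15537 and 9444 in the controls. Of these markers, 9 were higher and 2 lower, 0 past the adjusted threshold by edgeR, with 1 higher and 1 lower at an unadjusted p under 0.05. The last was Slc1a2, which went against the sum, with 931, 1019 and 875 after KD and 3024, 1571 and 3072 in the controls. Its log2 fold change was -1.44 (SE 0.25, adjusted p = 0.0552 by edgeR). Sox9 did not follow the split either, with 263, 286 and 260 against 280, 235 and 273. The part of these cells in the Ror1 values was not tested. Znrf3 in shCtrl replicate 2, the library with the highest sums of both lists, had 528 normalized counts. This was the highest of the controls (461 in replicate 1 and 405 in replicate 4) and below every shYthdf2 library. The part of the cells of both lists in the Znrf3 values was not tested. The 7 markers listed for Purkinje cells summed to 5152, 6174 and 5053 after KD and to 4019, 4484 and 4071 in the controls. Most of each sum was Gad1, with 4435, 5154 and 4296 against 3092, 3626 and 3156, without overlap, as for Znrf3. Calb1, the next most abundant, was lower (log2 fold change -0.45, SE 0.20, adjusted p = 0.263 by edgeR). Pcp2, with at most 50 counts in a library, was also lower (-0.22, SE 0.29, adjusted p = 0.715 by edgeR). Of the 6 markers tested, 3 were higher and 3 lower, 0 past the adjusted threshold by edgeR, with 2 higher at an unadjusted p under 0.05. The markers thus did not move as one, and the sum mostly gives Gad1. The part of the cells with Gad1 in the Znrf3 values was not tested. The 8 microglia markers summed to 1063, 406 and 1162 after KD and to 211, 849 and 185 in the controls, and all 7 tested were higher, 0 of them past the adjusted threshold or at an unadjusted p under 0.05 by edgeR. The 10 vascular and fibroblast markers summed to 4174, 10930 and 4316 after KD and to 3121, 8789 and 3082 in the controls, so they were highest in replicate 2, as Lrp5, Ror2 and Rnf43 were. Cldn5, a defining gene of brain endothelium, had at most 1 count in a library. The part of these cells in the values of Lrp5, Ror2 and Rnf43 was not tested.

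The genes whose log2 normalized counts were most like those of each member over the 6 libraries are given as a description among 12556 genes (12557 for Ror2 and Rnf43) with a mean of at least 50 normalized counts. All points share their libraries and the split of replicate 2, so high values are common. The nearest to Znrf3 were Adgrl3, an adhesion receptor of synapses (Pearson's r = 0.999), and Dmd, the dystrophin gene (0.998). The nearest to Ror1 were Rusc1 and Wdr90 (both 0.999), those to Lgr4 were Aven (1.00) and Ankrd28 (0.998), and those to Ryk were Inafm2 (0.997) and Gm5124 (0.996). Lrp6 and Lgr5 were near to each other (0.998), with Pigo (0.998) beside Lrp6 and Prelp (0.996) beside Lgr5. Lrp5 was nearest to Slco3a1 and Zfp146 (both 0.995), Ror2 to Fam162a and Rwdd1 (both 0.994), and Rnf43 to Cog4 (0.987) and Ramac (0.985). Among the 36 pairs of tested members, 3 had r above 0.9, namely Lrp6 with Lgr5 (0.998), Znrf3 with Lgr4 (0.959) and Lrp5 with Rnf43 (0.903). The lowest was Lrp5 with Ror1 (-0.893).

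Genes that overlap a member in the annotation could share reads with it where strand is not used. None of the 6 shared an exon base with its member. Inside Ror1 lie Gm12706 (at most 25 counts in a library) and Gm12701 (at most 4), inside Ryk lies Gm47427 (at most 6), and inside Rnf43 lie 1110028F11Rik and Gm25968 (0 counts). A930009A15Rik, on the other strand within Lgr5, had at most 27 counts.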

How the data were processed

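RNA-seq libraries of cultured GCs, 3 with shYthdf2 and 3 with shCtrl, were analysed. The authors deposited read counts per gene, as whole numbers without normalization. By the study's methods, filtered reads went through HISAT and TopHat2 against GRCm38 and then HTSeq for counting, whereas the submitters' processing notes name Bowtie 0.12.2 and mm9, and the library kits named also differ. Strandedness is not given in the sources used here. Gene symbols, coordinates and lengths were taken from GENCODE M21 on GRCm38, which matched 52489 of 53421 genes, and 785 others lay outside the annotation by their names.

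The main test was the quasi-likelihood test of edgeR 4.0.16 (R 4.3.3) on the counts. The function filterByExpr (minimum count 10, minimum total count 15) kept 17214 genes, TMM normalization followed, and p-values were adjusted over all genes tested by the Benjamini-Hochberg method, with a threshold of 0.05. Log2 ratios and differences between libraries used a prior count of 0.5. For paralogue ratios a two-sided exact permutation test with 10 arrangements was used. RPKM was counts per kilobase of exon union, scaled to the library's total counts on genes. Depth was 17246821 to 21546595 counts per library, so genes with few counts are imprecise, and each SD includes counting error. Some of the fits were also run on simulated counts with known fold changes. These counts were drawn without a shift of replicate 2, so the runs cannot show how the fits handle it.

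Libraries of the same replicate number deviated together from their group means, with correlations of 0.252 (replicate 1), 0.360 (replicate 2) and 0.321 (replicate 4), all above 0.1. Since replicate 2 stood apart in both groups, such correlations can arise without a pairing. Correlations between libraries of different numbers were not computed. The correlations therefore do not show that the libraries were paired, and a replicate block was tried as an alternative. The other alternatives were RLE size factors, no normalization factor, DESeq2 1.42.0, limma-voom (limma 3.58.1), no filter, at least 10 counts in every library, a term for replicate 2, each library left out and both replicate 2 libraries left out. For paralogues a prior count of 5 was tried, and for levels the longest transcript.

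The members and lists were chosen with earlier results of these data known. The genes named were the members, Ythdf2, for each list of related genes those past the adjusted threshold and the 2 most abundant, for each member the 2 genes most like it, and genes overlapping a member. Marker genes, Lrp4, Bcl9l, Dkk1, Lrp1b, Myc and the genes listed at 0 are named beside the result that turns on them. A marker gene of the oligodendrocyte list is not reported here.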

Additional observations from a re-analysis of the deposited data

How the results depend on the processing

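The number of members past the adjusted threshold was 1 of 9 as reported, beside 0.604% of all genes called. It was 2 with DESeq2 (7.67% of all genes) and 0 with limma-voom (0.139%). It was 6 both with a term for replicate 2 (22.1%) and without both libraries of replicate 2 (52.7%). With 1 library left out it ranged from 0 to 3. It was 3 without shCtrl replicate 2, beside 18.3% of all genes called. Without replicate 1 or 4 of either group it was 0, where 0 of all genes were called and 1 to 3 members had an unadjusted p under 0.05. The number of Wnt pathway genes (0 of 80) was 10 with DESeq2 (beside 7.67% of all genes called) and 2 with the replicate block (1.35%). With no filter it was 6 of 104 (1.98%). A term for replicate 2 gave 32 (22.1%), and leaving out both libraries of replicate 2 gave 55 (52.7%). With 1 library left out it was 0 to 27, namely 4 without shYthdf2 replicate 2 (4.7%) and 27 without shCtrl replicate 2 (18.3%). Ythdf2 passed the threshold with DESeq2 (log2 fold change -0.58, adjusted p = 0.0392), with a term for replicate 2 (-0.56, 0.0465) and without both libraries of replicate 2 (-0.32, 0.00124), and its log2 fold change was -0.66 to -0.41 with 1 library left out. The causes were not tested, but the last of these fits keeps fewer libraries, and the pair of libraries it keeps in each group lie close together. The replicate block changed no call of a member (Znrf3 0.98, adjusted p = 0.0452). The direction of 8 members held in every alternative that gave a value, and Rnf43 gave none with at least 10 counts in every library. Ror2 changed direction, with -0.58 to 0.092 over the libraries left out (0.071 without shYthdf2 replicate 4). Of the paralogue differences, those of Lrp6 and Lrp5 (-0.36 to 0.18), Lgr4 and Lgr5 (-0.18 to 0.27), Lgr4 and Lgr6 (-0.63 to 0.59) and Lgr5 and Lgr6 (-0.68 to 0.60) changed sign with a library left out. Depth limits Ror2, Rnf43 and Lgr6, whose counts stayed at or below 42 in every library.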
